A study of Mus musculus with 6 samples.

Results

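Elastin and the genes that assemble it into elastic fibres were followed in sorted fetal liver mesenchyme at 2 late stages of gestation. The group was a list of 10 genes (Eln, Fbn1, Fbn2, Mfap2, Mfap4, Emilin1, Fbln5, Efemp2, Lox and Loxl1), found by symbol among the 54532 genes of the deposited table, and all 10 were present. All of them passed the filter on low values, which asked for at least 1 TPM (a transcript level corrected for gene length and scaled to a fixed library total) in at least 3 of the 6 libraries and left 17824 genes to test.

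The study sorted eYFP-positive cells by flow cytometry from dissociated CD-1 mouse livers of genotype Sm22-Cre/ROSA26RYFP, 3 libraries at embryonic day 18 (E18) and 3 at embryonic day 16 (E16), lettered A to C on each day. Every group carried the same transgenes and no treatment is named. The eYFP mark is left by Cre driven from the promoter of Sm22 (Tagln), a gene of smooth muscle and related mesenchyme, so the sort collects cells that are expressing or once expressed Cre. Nothing in the labels says if libraries A to C are separate embryos or litters. The p-values therefore rest on library-to-library spread, and some of that spread may be technical.

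Elastic fibres give walls of vessels and other stretching tissues their recoil. Their core is cross-linked elastin, laid down on a scaffold of fibrillin microfibrils. Fibulins bring the soluble precursor of elastin and the cross-linking enzymes together on that scaffold, and lysyl oxidases, which are copper enzymes, then form the cross-links. In liver, elastic fibres lie mainly in portal tracts, around vessels and in the capsule.

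Read totals recovered from TPM and gene length were 14587544 to 18281942 per E18 library and 21130197 to 22626885 per E16 library. The most abundant gene, a predicted gene model, averaged 254260 TPM over the 6 libraries. Member genes rested on 177 to 15113 reads in an E18 library and 41 to 2344 reads in an E16 library. Mesenchymal markers were present on both days: Acta2 averaged 159 ± 55.7 TPM at E18 and 19.2 ± 14.5 TPM at E16, and Pdgfrb 63.3 ± 42.7 TPM at E18 and 8.70 ± 4.28 TPM at E16 (SD, n = 3 each). Tagln itself stood at only 3.14 ± 0.258 TPM at E18 and 1.06 ± 0.408 TPM at E16, and 67.9% of its exon length lies under genes of the opposite strand. The libraries also held other cells' transcripts. The summed TPM of 13 erythroid genes was 16727 ± 4507 at E18 and 6771 ± 917 at E16, and that of 15 hepatocyte genes 787 ± 336 at E18 and 4784 ± 3952 at E16. Of the endothelial genes, Pecam1 stood at 0.839 ± 0.361 TPM at E18 and 0.487 ± 0.353 TPM at E16, while Egfl7 stood at 16.9 ± 5.14 TPM at E18 and 34.3 ± 7.08 TPM at E16. Of the leukocyte and macrophage genes, Adgre1, Clec4f, Cd5l and Itgam are listed at 0 in all 6 libraries and Ptprc was at most 0.143 TPM. For Itgam, 68.7% of the exon length lies under the same-strand gene Gm49368. Cd68 stood at 80.8 ± 40.2 TPM at E18 and 50.2 ± 7.88 TPM at E16, and Csf1r at 2.65 ± 0.820 TPM at E18 and 1.24 ± 0.669 TPM at E16. The summed TPM of 6 megakaryocyte genes was 69.5 ± 40.4 at E18 and 41.5 ± 24.2 at E16. In such bulk samples a larger number of mesenchymal cells and more RNA per mesenchymal cell cannot be told apart.

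The elastic fibre genes were higher at E18, and elastin had the largest log2 change among them. Of the 10, 8 rose: Eln, Mfap4, Loxl1, Fbn2, Fbn1, Lox, Fbln5 and Emilin1. The threshold was an adjusted p under 0.05 by limma, a linear model of log2(TPM + 1), with Benjamini-Hochberg adjustment over all 17824 genes. Efemp2 and Mfap2 did not pass. Over all genes tested, 3.08% rose and 0.387% fell by the same test. For all 10 genes every E18 library lay above every E16 library, a pattern shown by 18.4% of all genes tested. The median log2 fold change of the 10 was 2.71, against 0.07 over all genes, with a range of 1.48 to 4.17. All 10 stayed higher at E18 under median-of-ratios scaling, quantile normalization and rescaling of TPM without hepatocyte, erythroid and mitochondrial genes and the most abundant gene. Of these scalings, quantile normalization moved the all-gene median most, to −0.08. Under it 314 genes were called higher and 85 lower, against 549 and 69 as deposited. The number of genes called, members included, depended on single libraries. Without E18 library A, E18 library B, E16 library A or E16 library C it was 0 over all 17824 genes, and so 0 for the members. Limma called 1 member and 55 genes in all with E16 library B left out. With E18 library C left out it called 8 members and 664 genes in all. All 10 members had an unadjusted p under 0.05 in each of these fits, as did 2765 to 4352 of the 17824 genes.

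**Figure D1:**
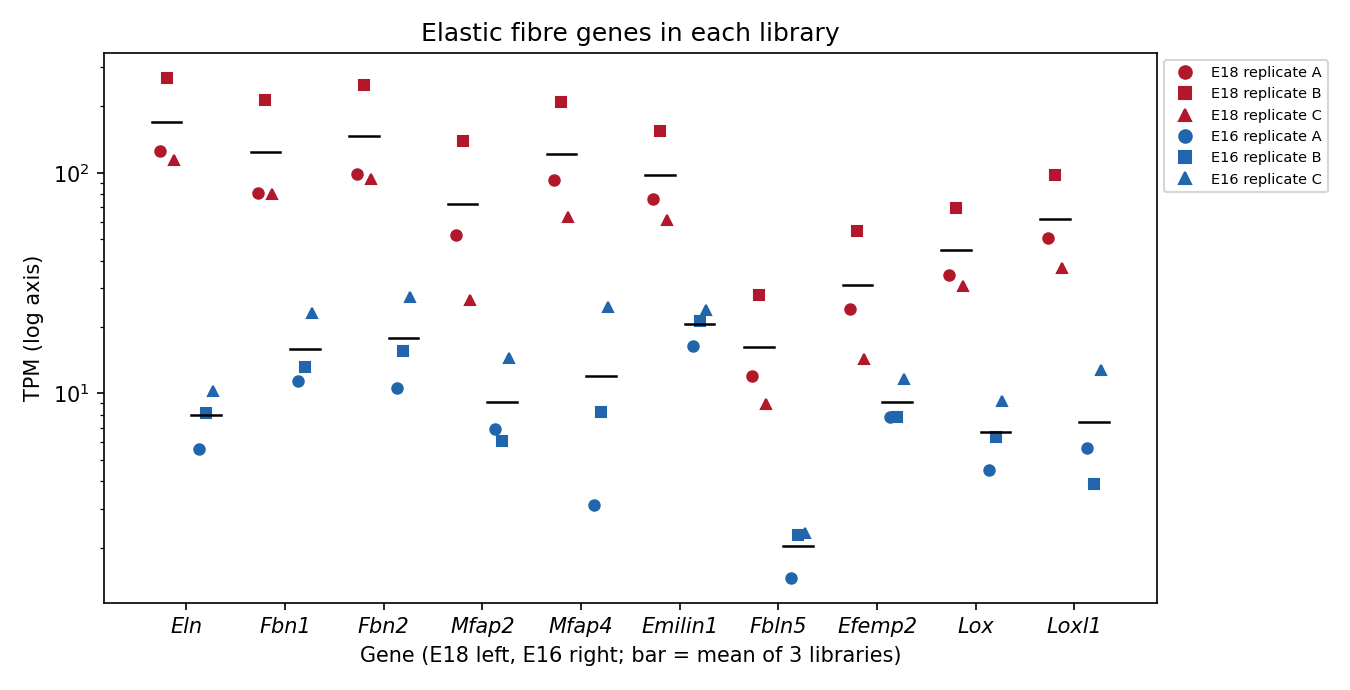
TPM of the 10 elastic fibre genes in each library on a log axis, E18 (red) left of E16 (blue) for each gene, with a circle for library A, a square for B and a triangle for C (replicates in the legend) and the mean of 3 libraries as a bar. Every E18 point lies above every E16 point of the same gene, and E18 library B is the highest library for all 10 genes.

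Elastin (Eln, ENSMUSG00000029675, chromosome 5, 134702593 to 134747323, minus strand, GRCm38) encodes the core protein of the fibre. It stood at 126, 269 and 114 TPM in E18 libraries A to C, against 5.57, 8.18 and 10.3 TPM in E16 libraries A to C. The lowest E18 library was 11.1 times the highest E16 library, the widest gap in the group. Eln rose by 4.17 ± 0.36 on the log2 scale (SE; limma adjusted p = 0.0153). Its rank among the rises of the 17824 genes depended on the 1 TPM added before taking logs: it was 3 with 1 TPM, 113 with 0.1 TPM and 1 with 5 TPM, the ranks at 0.1 and 5 TPM being computed after seeing the data. Its place within the group also differed between the days. Eln was the most abundant of the 10 in each E18 library, but ranked 7th, 5th and 8th in E16 libraries A to C. Its share of the group's summed TPM was 19.4%, 18.1% and 21.6% in E18 libraries A to C and 7.59%, 8.80% and 6.44% in E16 libraries A to C. Leaving out single libraries moved the log2 fold change of Eln between 3.78 and 4.39.

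**Figure D2:**
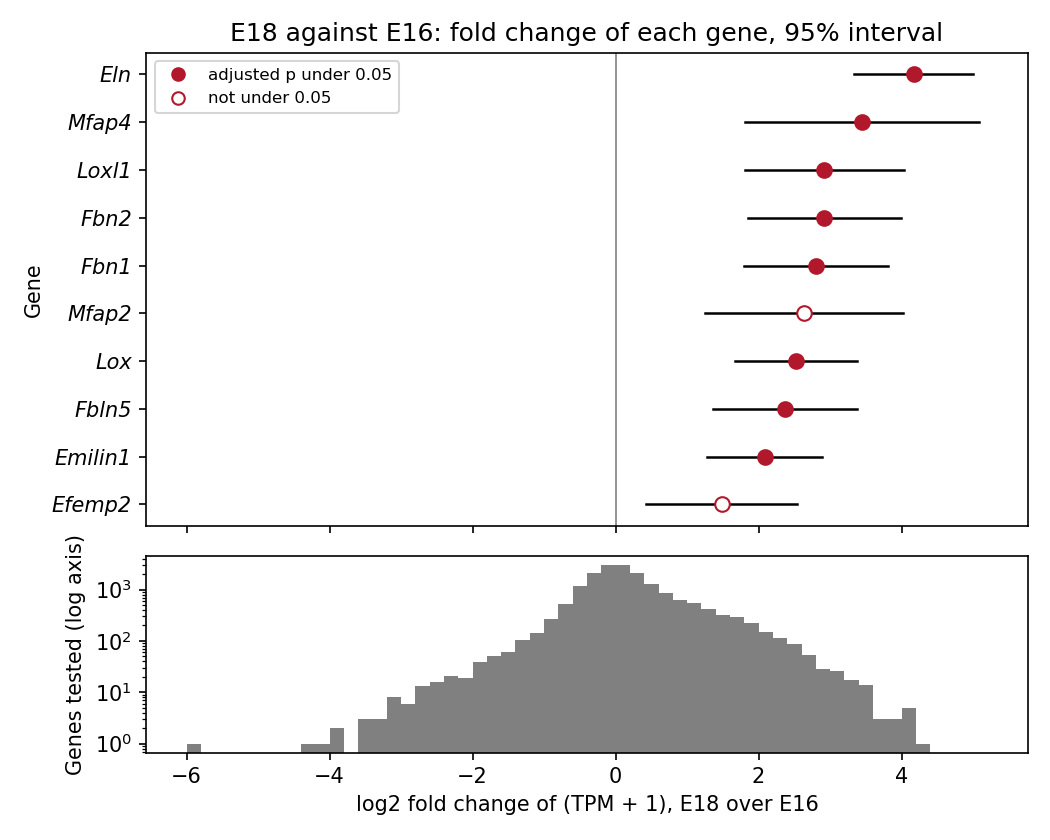
Upper panel: log2 fold change of (TPM + 1), E18 over E16, of each elastic fibre gene with its 95% interval, filled where the limma adjusted p was under 0.05. Lower panel: the same fold change for all 17824 genes tested, counted on a log axis. Eln lies at 4.17, near the right end of the distribution, and Efemp2 at 1.48 is the lowest of the group.

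The fibrillins, large proteins that polymerise into the microfibril scaffold, rose side by side. Fbn1 (ENSMUSG00000027204, chromosome 2, 125300594 to 125507993, minus strand) stood at 81.0, 213 and 80.0 TPM in E18 libraries A to C, against 11.3, 13.2 and 23.2 TPM in E16 libraries A to C. Fbn2 (ENSMUSG00000024598, chromosome 18, 58008623 to 58210487, minus strand), a fibrillin best known from fetal tissue, stood at 98.9, 250.2 and 93.3 TPM in E18 libraries A to C, against 10.6, 15.6 and 27.4 TPM in E16 libraries A to C. Library B was the highest at E18 and library C the highest at E16 for both genes. Fbn1 rose by 2.80 ± 0.43 and Fbn2 by 2.92 ± 0.46 on the log2 scale (SE; limma adjusted p = 0.0328 and 0.0331). Their profiles over the 6 libraries were the closest of the 45 pairs of members, with a root mean square difference of 0.12 log2 units against a median of 0.51. The ratio of Fbn1 to Fbn2 was 0.819, 0.852 and 0.858 in E18 libraries A to C and 1.07, 0.845 and 0.848 in E16 libraries A to C. The log2 ratio differed by −0.12 between the days (2-sided exact permutation p = 0.6, adjusted p = 0.6 over the 8 ratios compared), with overlapping groups. A part of Fbn1's exon length, 20.1%, lies under the opposite-strand gene Gm9913, and whether the authors' counting used strand is not given in the sources used here. For Mfap4 that share is 4.63% (Mapk7), for Efemp2 4.57% (Mus81) and for Eln 3.3% (Gm30003).

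Of the genes for proteins that decorate the microfibril, Mfap4 and Emilin1 rose and Mfap2 did not pass. Mfap4 (ENSMUSG00000042436, chromosome 11, 61485431 to 61488900, plus strand), a glycoprotein that binds elastin and fibrillin, stood at 92.5, 209 and 62.7 TPM in E18 libraries A to C. In E16 libraries A to C it stood at 3.12, 8.22 and 24.7 TPM, the widest spread of any member at E16 with a coefficient of variation of 93.8%. Mfap4 rose by 3.44 ± 0.69 on the log2 scale (SE; limma adjusted p = 0.0475), the largest log2 change after Eln. The call of Mfap4 was marginal. Its limma adjusted p was 0.0596 with a pseudocount of 0.1, 0.0509 with 5, 0.0544 with a filter on mean TPM, 0.0576 with quantile normalization, 0.0614 without the intensity trend, 0.103 without a filter on low values and 0.05002 with median-of-ratios scaling. It was 0.0531 to 0.136 with single libraries left out, and the log2 change was 2.81 without E16 library A and 4.13 without E16 library C. Mfap4 did pass after rescaling without hepatocyte, erythroid and mitochondrial genes and the most abundant gene (limma adjusted p = 0.0461). With limma's voom on recovered reads its adjusted p was 0.0137. Mfap2 (ENSMUSG00000060572, chromosome 4, 141010418 to 141015984, plus strand), a small microfibril glycoprotein, stood at 52.4, 139 and 26.5 TPM in E18 libraries A to C, against 6.89, 6.09 and 14.4 TPM in E16 libraries A to C. Its log2 fold change was 2.63 ± 0.59 (SE; limma adjusted p = 0.0574), short of the threshold. Mfap2 did pass without E18 library C (limma adjusted p = 0.0425) and with limma's voom on recovered reads (adjusted p = 0.0403). It did not pass under the other alternatives, with adjusted p of 0.0600 or more, and its log2 change was 2.01 without E18 library B (limma adjusted p = 0.116). The ratio of Mfap4 to Mfap2 was 1.77, 1.5 and 2.37 in E18 libraries A to C and 0.453, 1.35 and 1.71 in E16 libraries A to C. These groups overlap (2-sided exact permutation p = 0.2, adjusted p = 0.267 over the 8 ratios). Emilin1 (ENSMUSG00000029163, chromosome 5, 30913402 to 30921277, plus strand), found at the interface of elastin and microfibril, stood at 76.1, 155 and 60.9 TPM in E18 libraries A to C, against 16.4, 21.4 and 24.0 TPM in E16 libraries A to C. Emilin1 had the highest mean of the 10 genes at E16 and rose by 2.09 ± 0.34 on the log2 scale (SE; limma adjusted p = 0.0349).

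The short fibulins couple elastin to its cross-linking. Fibulin-5 (Fbln5, ENSMUSG00000021186, chromosome 12, 101746565 to 101819055, minus strand) binds elastin and Loxl1. It had the lowest level of the 10 in each library, with 12, 27.9 and 8.93 TPM in E18 libraries A to C, against 1.46, 2.29 and 2.32 TPM in E16 libraries A to C. Fbln5 rose by 2.37 ± 0.43 on the log2 scale (SE; limma adjusted p = 0.0381). It did not pass with a pseudocount of 5 (limma adjusted p = 0.0626) or quantile normalization (limma adjusted p = 0.053). Fibulin-4 (Efemp2, ENSMUSG00000024909, chromosome 19, 5473954 to 5482517, plus strand) binds Lox and is needed for elastic fibres of large arteries. Efemp2 stood at 24.2, 54.5 and 14.4 TPM in E18 libraries A to C, against 7.85, 7.79 and 11.7 TPM in E16 libraries A to C. Its groups nearly touch: the lowest E18 library was 1.23 times the highest E16 library, the narrowest gap of the group. Efemp2 had a change of 1.48 ± 0.45 on the log2 scale (SE; limma adjusted p = 0.115), or 0.98 without E18 library B. The ratio of Fbln5 to Efemp2 was 0.496, 0.511 and 0.622 in E18 libraries A to C, against 0.186, 0.294 and 0.199 in E16 libraries A to C, and the groups do not overlap. The geometric mean ratio was 2.44 times as high at E18 (log2 difference 1.29; 2-sided exact permutation p = 0.1, the smallest that 3 against 3 libraries can give, adjusted p = 0.2 over the 8 ratios).

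Because Fbln5 passed the test and Efemp2 did not, the 250 bases before the transcription start of each are shown, 5′ to 3′ on the gene's own strand, from RefSeq on GRCm38.p6. The Fbln5 window is chr12:101819120-101819369 on the minus strand and the Efemp2 window chr19:5473696-5473945 on the plus strand, each the most upstream of the gene's starts in the table, and neither overlaps an annotated exon. Capitals mark matches, on either strand, to the GC box GGGCGG and the SMAD core CAGAC.
Fbln5: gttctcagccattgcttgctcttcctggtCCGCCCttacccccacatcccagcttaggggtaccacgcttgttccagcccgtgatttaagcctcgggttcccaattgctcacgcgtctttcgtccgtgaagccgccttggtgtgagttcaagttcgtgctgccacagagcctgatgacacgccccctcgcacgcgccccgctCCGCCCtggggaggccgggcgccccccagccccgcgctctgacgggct
Efemp2: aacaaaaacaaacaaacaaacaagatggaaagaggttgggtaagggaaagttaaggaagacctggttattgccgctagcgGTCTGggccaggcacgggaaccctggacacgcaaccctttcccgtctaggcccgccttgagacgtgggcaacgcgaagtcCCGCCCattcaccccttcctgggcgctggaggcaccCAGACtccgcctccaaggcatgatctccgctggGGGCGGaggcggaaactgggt
Both windows hold 2 GC boxes, a motif found in 32.7% of the 32851 promoter windows of this length in the table. Efemp2 also holds 2 SMAD cores, found in 42.2% of all windows, and Fbln5 holds none. Neither has a match to the TATA box TATAAA (12.4% of windows), the TEAD motif CATTCC (12.6%), the AP-1 motif TGANTCA (6.75%) or the CArG box (1.47%). No motif searched overlaps another in these windows. The GC content is 65.2% for Fbln5 and 59.2% for Efemp2, against a median of 52.4%. These matches describe the letters of the windows only.

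The cross-linking enzymes both rose. Lox (ENSMUSG00000024529, chromosome 18, 52516067 to 52529867, minus strand), the founding lysyl oxidase, stood at 34.3, 69.0 and 30.6 TPM in E18 libraries A to C, against 4.48, 6.35 and 9.25 TPM in E16 libraries A to C. Loxl1 (ENSMUSG00000032334, chromosome 9, 58287738 to 58313186, minus strand), the family member tied most closely to elastin, stood at 50.4, 98.1 and 37.1 TPM in E18 libraries A to C, against 5.64, 3.88 and 12.8 TPM in E16 libraries A to C. The days do not overlap for either enzyme, and E16 library B is the lowest library for Loxl1 but not for Lox. Lox rose by 2.52 ± 0.36 and Loxl1 by 2.92 ± 0.47 on the log2 scale (SE; limma adjusted p = 0.0314 and 0.0344). The ratio of Lox to Loxl1 was 0.681, 0.704 and 0.824 in E18 libraries A to C and 0.793, 1.64 and 0.723 in E16 libraries A to C (2-sided exact permutation p = 0.4, adjusted p = 0.457 over the 8 ratios). Within the summed TPM of the 5 lysyl oxidase genes, Loxl1 made up 41.0% to 46.5% in the E18 libraries and 22.4% to 38.7% in the E16 libraries. Loxl3 made up 7.12% to 7.77% at E18 and 15.7% to 22.8% at E16, and Loxl4 3.34% to 4.65% at E18 and 8.85% to 14.4% at E16. Shares of a fixed total are not independent of each other.

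By mean TPM, the order at E18 was Eln, Fbn2, Fbn1, Mfap4, Emilin1, Mfap2, Loxl1, Lox, Efemp2 and Fbln5. At E16 it was Emilin1, Fbn2, Fbn1, Mfap4, Mfap2, Efemp2, Eln, Loxl1, Lox and Fbln5. Of the 9 neighbouring pairs at E18, 0 differed in mean by more than the larger of their 2 SDs, and at E16 the 1 pair that did was Lox and Fbln5. The SD is a spread between libraries that the genes share, so it does not measure their order within a library. Within each of the 3 E18 libraries Eln lay above Fbn2, Fbn2 above Fbn1, Mfap4 above Emilin1 and Emilin1 above Mfap2. The same held for Loxl1 above Lox, Lox above Efemp2 and Efemp2 above Fbln5. Fbn1 lay above Mfap4, and Mfap2 above Loxl1, in 2 of the 3. At E16 only Lox above Fbln5 held in all 3 libraries. E18 library B held more of every member than the other E18 libraries. Its level was 2.13 times (Lox) to 3.52 times (Mfap2) the mean of E18 libraries A and C.

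Other mesenchymal genes moved with the elastic fibre genes, so the members were also set against 5 fibrillar collagen genes (Col1a1, Col1a2, Col3a1, Col5a1 and Col5a2) in the same library, and Eln also against 11 smooth muscle genes. Such ratios do not move with the scaling of a library. Eln equalled 0.0506, 0.0499 and 0.0542 of the summed collagen TPM in E18 libraries A to C, against 0.0138, 0.0167 and 0.0139 in E16 libraries A to C. On the geometric mean it was 3.50 times as high relative to collagen at E18 (log2 difference 1.81). Eln was likewise 2.75 times as high relative to Fbn1 and 2.46 times as high relative to the smooth muscle sum. In these 3 ratios the groups do not overlap, and each had a 2-sided exact permutation p of 0.1, the smallest this design can give, and an adjusted p of 0.2 over the 8 ratios. The summed TPM of the other 9 members equalled 0.209, 0.225 and 0.196 of collagen in E18 libraries A to C and 0.168, 0.173 and 0.202 in E16 libraries A to C. That ratio was 1.17 times as high at E18, with overlapping groups (2-sided exact permutation p = 0.2, adjusted p = 0.267 over the 8 ratios).

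Gene by gene against collagen, a description added after the values were seen and not tested, Eln, Loxl1, Fbn2 and Fbn1 were above in every E18 library relative to every E16 library, at 3.50, 1.5, 1.38 and 1.27 times. Efemp2 and Emilin1 were below in every E18 library, at 0.516 and 0.762 times. Mfap4, Fbln5, Mfap2 and Lox overlapped between the days, at 2.15, 1.26, 1.18 and 1.13 times. The share of all genes tested that lay above or below in this ratio was not computed. The 5 collagen genes themselves rose by 2.21 to 2.68 on the log2 scale, against a median of 0.07 over all genes. The split of the members therefore has no background to be read against.

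**Figure D3:**
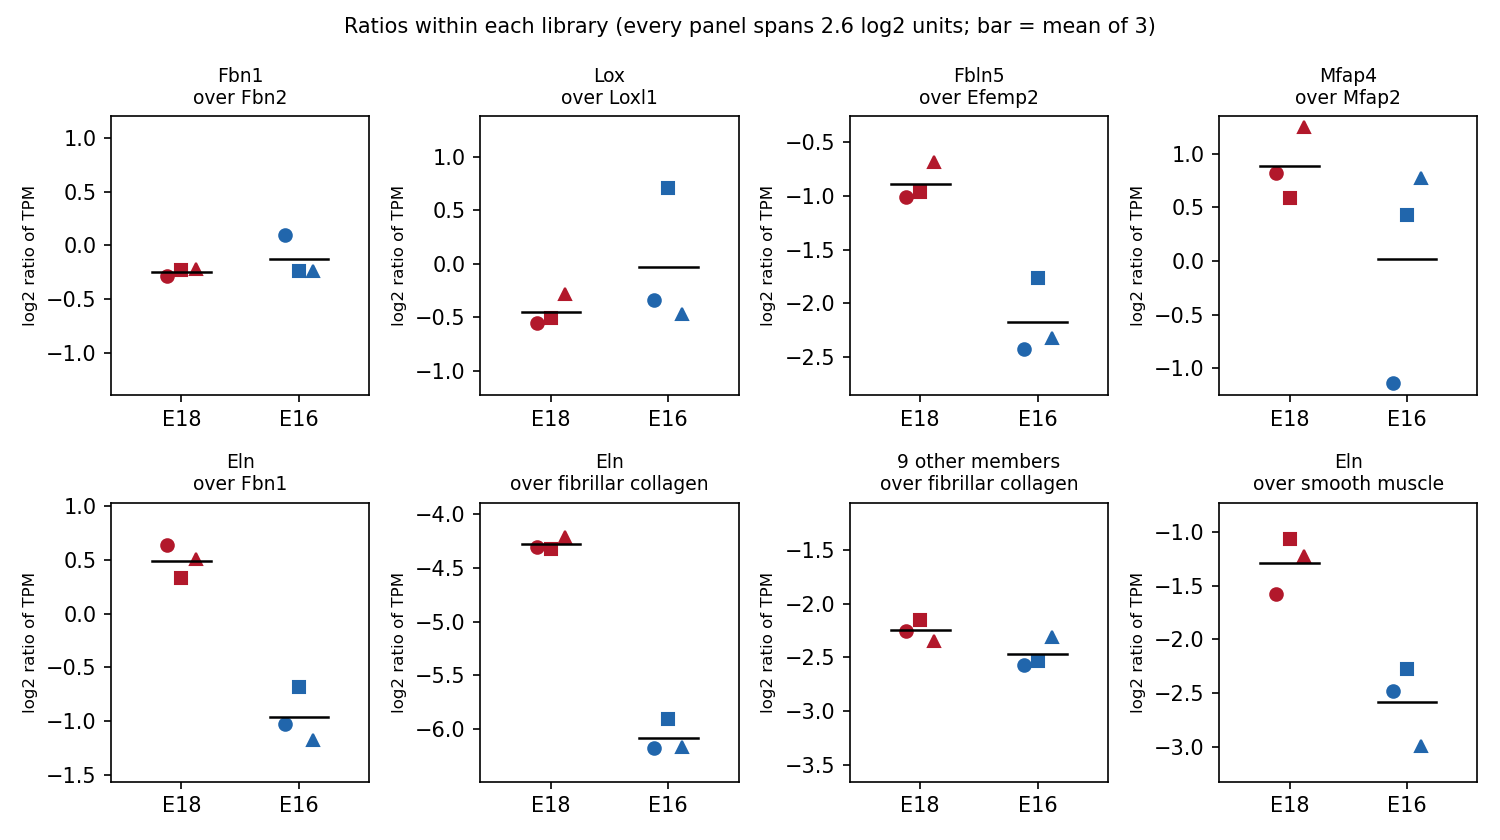
Log2 ratio of TPM within each library for the 8 ratios compared, E18 (red) left of E16 (blue), with symbols for libraries A (circle), B (square) and C (triangle) and a bar for the mean of 3. The groups separate for Fbln5 over Efemp2 and for Eln over Fbn1, fibrillar collagen and smooth muscle, and overlap in the other 4 panels.

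Marker lists of several cell types differed between the days alongside the group. The summed TPM of the 10 elastic fibre genes was 648, 1484 and 529 in E18 libraries A to C, against 73.3, 92.9 and 160 in E16 libraries A to C. The fibrillar collagen sum ran from 2109 to 5392 TPM at E18 and from 404 to 742 at E16, the smooth muscle sum from 266 to 561 TPM at E18 and from 31.1 to 82.2 at E16. The sum of 10 portal fibroblast genes ran from 153 to 343 TPM at E18 and from 24.9 to 47.0 at E16. For 13 stellate cell and pericyte genes it ran from 169 to 515 TPM at E18 and from 45.0 to 82.5 at E16, and for 8 mesothelial genes from 82.0 to 149 TPM at E18 and from 23.5 to 25.8 at E16. By the limma test 5 of 5 collagen, 8 of 11 smooth muscle and 7 of 9 portal fibroblast genes tested rose. So did 4 of 13 stellate and 4 of 8 mesothelial genes, against 3.08% of all genes tested. Of the smooth muscle genes called, Lmod1 and Myocd were under 1 TPM in every E16 library. They passed the filter on low values through the E18 libraries alone. The hepatocyte sum ran from 407 to 1047 TPM at E18 and from 2222 to 9336 at E16, and the erythroid sum from 11541 to 19692 TPM at E18 and from 5844 to 7677 at E16. E18 library B stood at 2.52 times the mean of E18 libraries A and C for the elastic fibre sum, 2.83 times for the stellate sum and 2.34 times for collagen. The same measure was lower for the portal fibroblast sum (2.05 times), the mesothelial sum (1.76 times) and the smooth muscle sum (1.75 times). With the hepatocyte score as a covariate limma called 0 of the 17824 genes, and so 0 members. In that fit Eln had a limma adjusted p of 0.29 at a log2 change of 4.43. An unadjusted p under 0.05 was held by 6 members and by 1792 of all genes. With the fibrillar collagen score as a covariate limma also called 0 of all genes and 0 members. There, 1 member and 665 of all genes had an unadjusted p under 0.05. In the collagen fit the log2 change of Eln was 1.76 (limma adjusted p = 0.99993), and those of Fbn1, Fbn2, Fbln5, Efemp2, Emilin1, Mfap2 and Mfap4 were below 0, from −0.10 to −1.38. Neither the collagen sums nor the hepatocyte sums of the days overlap, so neither score can be told apart from the day.

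**Figure D4:**
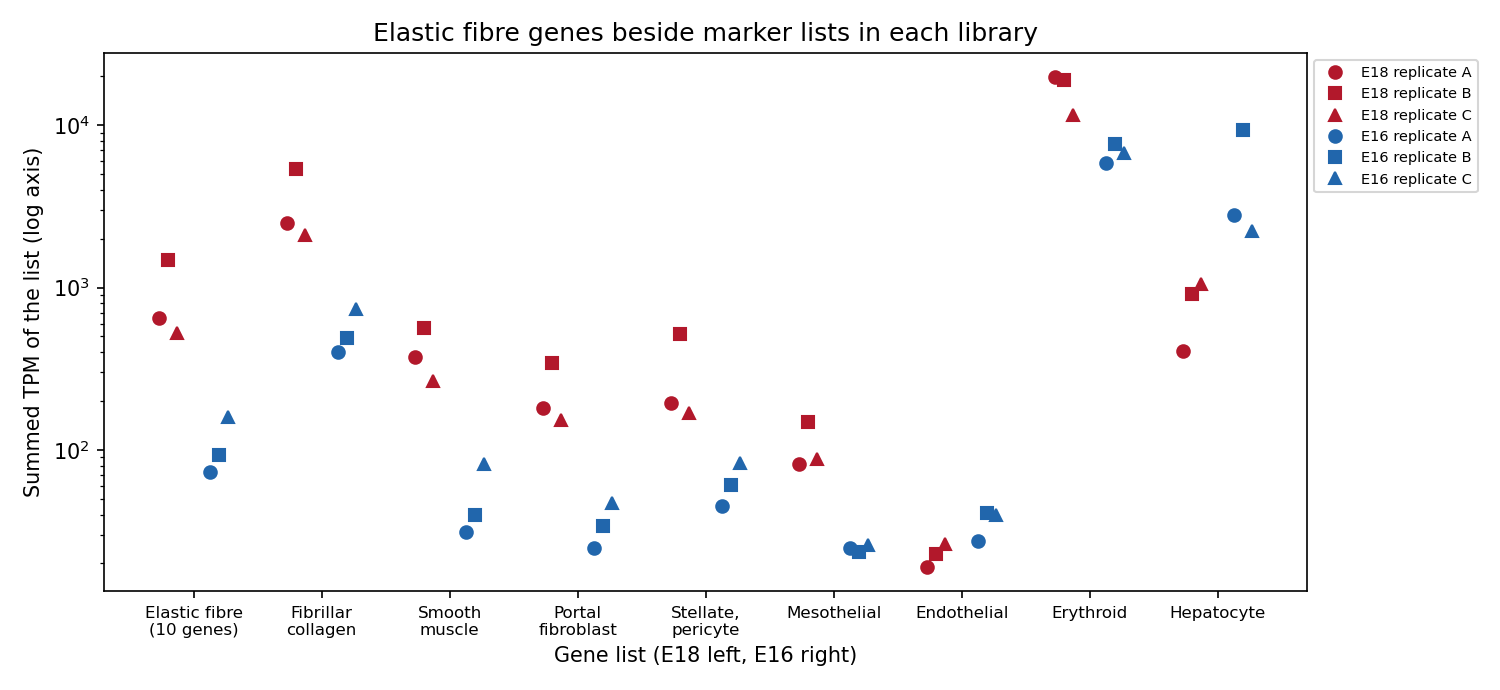
Summed TPM of the elastic fibre genes and of 8 marker lists in each library on a log axis, E18 (red) left of E16 (blue), with a circle for library A, a square for B and a triangle for C (replicates in the legend). The elastic fibre sum lies at 529 to 1484 in the E18 libraries and 73.3 to 160 in the E16 libraries, the other mesenchymal lists are also higher at E18, and the hepatocyte sum is lower. The endothelial sum is also lower, but Egfl7 makes up 16.9 of its 22.9 TPM at E18 and 34.3 of its 36.1 TPM at E16, and Flt1, the other endothelial gene tested, averaged 1.57 TPM at E18 and 0.181 TPM at E16.

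The wider pathway was read from 62 other genes in 5 lists, of which 48 were tested. Of these, 21 rose and 0 fell at limma adjusted p under 0.05, against 3.08% and 0.387% of all genes. At an unadjusted p under 0.05 there were 37, and 3720 of the 17824 genes tested. Their median log2 fold change was 1.52. Slpi, Timp1 and Adamtsl2, which were called, stood under 1 TPM in every E16 library. So did Fbln7, Mfap5, Adamtsl1 and Adamts19, which were not called. All of these passed the filter on low values through the E18 libraries alone, so their rise is not independent of the filter. Leaving out single libraries gave 0 calls without E18 library A, E18 library B, E16 library A or E16 library C, 2 with E16 library B left out and 16 with E18 library C left out. Over all genes the same fits gave 0, 55 and 664 calls. With voom on recovered reads 31 were called higher and 1 lower, and with quantile normalization 17 and 1. The gene called lower was Serpina1a.

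Among other proteins of the fibre and its microfibrils, 8 of 14 tested rose. Ltbp2, a microfibril protein that binds fibulin-5, averaged 55.3 ± 31.3 TPM at E18 and 1.96 ± 0.815 TPM at E16 (SD, n = 3 each), a rise of 4.15 ± 0.40 on the log2 scale (SE; limma adjusted p = 0.0191). Ltbp4, which takes part in elastin assembly with fibulin-5, averaged 128 ± 71.9 TPM at E18 and 14.5 ± 3.83 TPM at E16, and its relative Ltbp3 46.4 ± 20.8 TPM at E18 and 6.26 ± 2.84 TPM at E16. Tnxb, the matrix glycoprotein tenascin-X, rose by 3.42 ± 0.38, Fbln1 by 2.77 ± 0.38, the lysyl oxidase Loxl2 by 2.21 ± 0.36 and Fbln2 by 1.51 ± 0.26 on the log2 scale. Emilin2, named after its values were seen, completes the 8 with 58.6, 53.4 and 56.6 TPM in E18 libraries A to C, against 35.7, 30.4 and 34.5 TPM in E16 libraries A to C, a rise of 0.73 ± 0.13. Unlike the members, it was not highest in E18 library B. Mfap5, the relative of Mfap2, averaged only 2.96 ± 1.88 TPM at E18 and 0.295 ± 0.343 TPM at E16 and missed the threshold (limma adjusted p = 0.0943).

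In the family of ADAMTS proteases and ADAMTS-like proteins that bind fibrillin, 4 of 10 tested rose. Adamtsl2 stood at 11.7, 28.8 and 7.54 TPM in E18 libraries A to C, against 0.0183, 0 and 0.464 TPM in E16 libraries A to C. It passed the filter on low values through the E18 libraries alone. The protease Adamts10 averaged 43.5 ± 23.7 TPM at E18 and 6.03 ± 2.01 TPM at E16, a rise of 2.56 ± 0.40 on the log2 scale. Adamtsl5 rose by 1.82 ± 0.30 and Thsd4, also known as ADAMTSL6, by 1.80 ± 0.30. Limma adjusted p for these 4 lay between 0.0299 and 0.0353.

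Genes that activate or supply lysyl oxidase gave 1 call among 5 tested. Postn, a matricellular protein that promotes lysyl oxidase activation, rose by 2.82 ± 0.36 on the log2 scale, with 70.1 ± 34.7 TPM at E18 and 8.56 ± 2.46 TPM at E16. Bmp1, the protease that releases active Lox, averaged 18.0 ± 9.09 TPM at E18 and 5.00 ± 1.55 TPM at E16 and missed the threshold (limma adjusted p = 0.0705). Atp7a, the copper pump that loads lysyl oxidases, averaged 8.62 ± 2.14 TPM at E18 and 6.59 ± 0.304 TPM at E16 (limma adjusted p = 0.538). Among receptors for elastin fragments and integrins that bind microfibrils, 1 of 9 tested rose: Itga8, with 28.7 ± 16.9 TPM at E18 and 2.0 ± 1.17 TPM at E16, a log2 change of 3.23 ± 0.45 (SE; limma adjusted p = 0.0314).

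Elastin-degrading enzymes and their inhibitors held 7 genes that rose among 10 tested. The gelatinase Mmp2 averaged 109.6 ± 54.1 TPM at E18 and 9.91 ± 4.14 TPM at E16, a rise of 3.29 ± 0.39 on the log2 scale (SE; limma adjusted p = 0.0273), and the cysteine protease Ctsk rose by 1.77 ± 0.31. Of the metalloproteinase inhibitors, Timp2 rose by 2.88 ± 0.39, Timp3 by 2.29 ± 0.41 and Timp1 by 3.25 ± 0.52, the last listed at 0 in E16 libraries A and B. Slpi, an inhibitor of neutrophil elastase, stood at 1.92, 2.97 and 2.61 TPM in E18 libraries A to C and is listed at 0 in each E16 library. Both Slpi and Timp1 passed the filter on low values through the E18 libraries alone. Serpina1a, which encodes the elastase inhibitor alpha-1 antitrypsin and is also on the hepatocyte list, stood at 5.69, 7.52 and 5.24 TPM in E18 libraries A to C, against 20.5, 69.8 and 21.1 TPM in E16 libraries A to C. Its log2 change was −2.19 ± 0.46 (SE; limma adjusted p = 0.0519), short of the threshold, with every E18 library below every E16 library. It was named after its values were seen. Mmp12, the macrophage elastase, is listed at 0 in all 6 libraries.

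**Figure D5:**
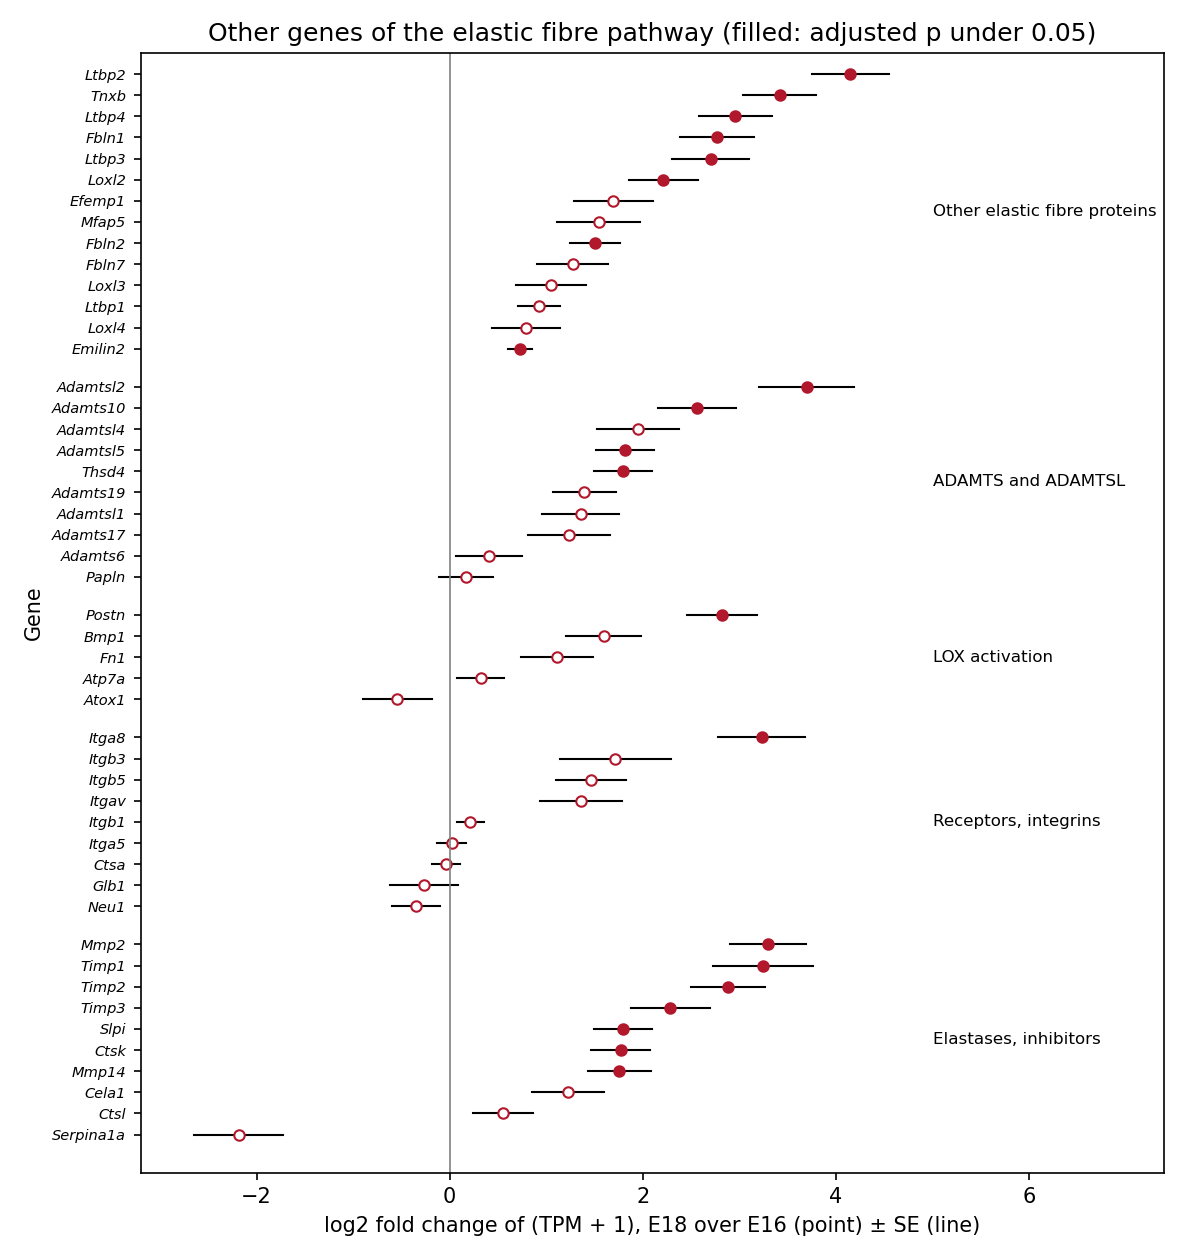
Log2 fold change of (TPM + 1), E18 over E16, with its SE for the other genes of the elastic fibre pathway that were tested, grouped by role and filled where the limma adjusted p was under 0.05. Ltbp2 has the largest rise at 4.15, and the receptor group holds a single called gene, Itga8. The points of Slpi, Timp1, Adamtsl2 and Mfap5 depend on the 1 TPM added, since 1 or more E16 libraries are listed at 0 for each of them.

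The genes most like Eln were found by the root mean square difference between centred log2(TPM + 1) profiles over the 6 libraries, among named genes outside the group with a mean of at least 10 TPM on their higher day. The 5 nearest were Ltbp2 (0.20 log2 units), Mgp, an inhibitor of calcification (0.22), Dpt, which encodes dermatopontin (0.32), Adamtsl2 (0.33) and Sparcl1 (0.39). The nearest member of the group to Eln was Fbn2, at 0.65. For the mean profile of the 10 members the 5 nearest were Col3a1 (0.07), Epha3 (0.07), Ahnak (0.08), Col1a2 (0.09) and Adamts1 (0.10). The order for Eln depended on the 1 TPM added, a check made after seeing the data. Mgp and Adamtsl2, at 0.258 and 0.161 TPM at E16, were far from the nearest genes with 0.1 TPM (order 364 and 317) and with 5 TPM (56 and 102). Ltbp2 was in order 7 with 0.1 TPM and 1 with 5 TPM, Sparcl1 8 and 7, and Dpt 2 and 23. The measure rests on 3 libraries a day and describes these libraries.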

How the data were processed

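RNA of eYFP-positive fetal liver cells was sequenced from 6 libraries made with a stranded total RNA kit, per the labels' protocols. The authors deposited 1 table of TPM, with each library summing to a fixed total. The submitters' processing notes name HTSeq 0.5.4p3 as a tool, besides HISAT2 2.1.0, FastQC 0.11.7 and Bowtie, and mm10 as the build. Which annotation and strand setting were used is not given here. Symbols matched 54409 of 54532 identifiers. Positions and exon lengths came from GENCODE on GRCm38, counted from 1.

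TPM multiplied by exon length gave whole reads within 0.05 for 96.8% to 97.1% of values above 0, and hence the read totals. Libraries of a day differed by 20.9 to 107 times sampling noise (chi-square over its degrees of freedom), so no pair looked like 1 library deposited again.

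The days were compared on log2(TPM + 1), a scale that understates the change of low genes, with the trended moderated test of limma 3.58.1 (R 4.3.3), 2-sided. The fit was tested on simulated data. Ratios were tested by exact permutation with SciPy 1.17.1. The 10 members and all lists were chosen with earlier results of these data known, so they give no independent support. From each wider list the called genes with the smallest p, at most 6, and 10 fixed genes were named. Alternatives were other pseudocounts, filters, scalings, no trend, covariates, the letter as a replicate block and leaving out each library. Voom on recovered reads was added after seeing the data. Promoter sequences came from RefSeq. The members on chromosome 18 (Fbn2 and Lox) were left out, and windows were found for 5 of the remaining members. Figures were drawn with Matplotlib 3.10.9.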

Additional observations from a re-analysis of the deposited data

How the results depend on the processing

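All 10 members kept a positive log2 fold change under every alternative tried except the fibrillar collagen score as a covariate, where Fbn1 was at −0.12, Fbn2 at −0.20, Fbln5 at −0.10, Emilin1 at −0.18, Mfap4 at −0.91, Mfap2 at −1.22 and Efemp2 at −1.38, and Eln at 1.76. The number called was less stable, and the cause was not tested. Limma called 618 genes, 8 members and 21 wider pathway genes as deposited. It called 0, 0 and 0 without a filter on low values, with the hepatocyte score or with the collagen score. Deviations of same-letter libraries correlated at 0.102, −0.139 and −0.117 for A, B and C, so the letters were not taken to pair the days. The letter as a replicate block gave 0, 0 and 0 calls, with 3195 genes, 10 members and 37 wider genes at an unadjusted p under 0.05. Counts at that unadjusted p were 4571, 10 and 40 without the filter, 1792, 6 and 25 with the hepatocyte score, and 665, 1 and 1 with the collagen score. Pseudocount 5 gave 347 genes and quantile normalization 399. Voom on recovered reads gave 1465 genes, 9 members and 32 wider genes. Leaving out single libraries gave 0 to 664 genes, 0 to 8 members and 0 to 16 wider genes, with 2765 to 4352 genes at an unadjusted p under 0.05. The 8 ratios kept their direction with 1 TPM added to both sides, within letters and without each library, but not always their size. The log2 difference of Fbn1 over Fbn2 was −0.0063 without E16 library A, against −0.12 with all libraries. That of Lox over Loxl1 was −0.046 without E16 library B, against −0.42 with all libraries. With 3 libraries a day no exact test of a ratio can reach 0.05.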
